A study of Mus musculus with 24 samples.

Results

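The genes described here are 10 genes of the Notch pathway, a cell-to-cell signalling route, on arrays of HC11 cells. They are the receptors *Notch1*, *Notch2* and *Notch3*, the ligands *Jag1*, *Jag2* and *Dll1*, the ligand-like *Dlk2*, the ubiquitin ligase *Mib2* and the target genes *Hes1* and *Hey1*. The members were chosen with earlier results of these data known, among 20158 genes with a named probe, so their counts against all probes are descriptive. Array probes were assigned to them through their RefSeq accession. The accession of the *Dlk2* probe was not in the RefSeq table used, and that probe was named through the study's own tables. *Notch1* and *Notch2* each had a second, dimmer probe, and the brighter probe stands for the gene. *Dlk2*, *Hey1* and *Mib2* were listed by the study from these same arrays, so their changes in those comparisons are not independent evidence.

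HC11 is a mouse mammary epithelial cell line from Comma-D cells of a mid-pregnant Balb/c mouse, and mPINC is a long noncoding RNA of the mammary gland that the study knocked down or overexpressed. The 24 arrays fall into 9 groups. Cells transfected with 10 nM siRNA carried a negative control (siNEG), siRNAs against splice forms 1.0 and 1.6 of mPINC (siPINC1.0/1.6) or a pair of siRNAs that together target all splice forms (siPINC), and they were kept without (-LH, 2 arrays a group) or with (+LH, 3 arrays a group) lactogenic hormones. The study names hydrocortisone, insulin and prolactin as these hormones. By its culture methods, insulin was already in the growth and priming media, and prolactin and hydrocortisone were added to the priming medium. The growth medium held EGF and calf serum, and the priming medium stripped horse serum without EGF. The medium of the -LH arrays is not given, so whether serum and EGF also differed from +LH cells is not known. Lentivirus brought in GFP alone (LeGO-GFP), both of those splice forms (LeGO-1.0/1.6) or a deletion mutant without the terminal exons and the most conserved regions in them (LeGO-DCR), and all of these cells received the hormones (3 arrays a group). The labels spell these groups siNegative, siPINC1/6 and LeGO-1/6. Lentiviral cells were populations expanded after transduction. The siNEG arrays serve as the control of both knockdowns and of the hormone comparison, and the LeGO-1.0/1.6 arrays are set against both other lentiviral groups. The methods name a pair of hormone treatment times, and which of them applies to the arrays is not given in the sources used here.

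In Notch signalling, a transmembrane receptor is bound by a ligand on a neighbouring cell. The ligand is then pulled into its own cell with the help of ubiquitin ligases such as Mib2, the receptor is cut, and its released intracellular domain joins the DNA-binding protein Rbpj in the nucleus. The Hes and Hey genes, which encode transcriptional repressors, are known direct targets. In the mammary gland the pathway is known for its part in the choice between basal and luminal fates, and Notch3 marks luminal cells there.

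The promoters of the members were read to show what lies before genes that moved together or opposed each other. The RefSeq table of the build GRCm38.p6 held windows for 8 of the 10 members, and *Hes1* and *Hey1* had none. The 250 bases before each start were searched on both strands for TGGGAA, the core that Rbpj binds, for CACNAG, the N-box that Hes repressors bind, for the E-box CACGTG, which Hey repressors can bind, and for TTCNNNGAA, the palindrome that STAT factors, mediators of prolactin signalling, bind. These motifs were present in 21.6%, 36.7%, 6.02% and 7.02% of all 32851 windows. *Notch3*, with 2 N-boxes, and *Mib2*, with the STAT palindrome, are shown because both rose with the hormones, and *Jag1*, with no match, because it fell. Capitals mark the matches, and coordinates run over the 250 bases printed, all read from the minus strand.

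*Notch3*, chr17:32166891-32167140: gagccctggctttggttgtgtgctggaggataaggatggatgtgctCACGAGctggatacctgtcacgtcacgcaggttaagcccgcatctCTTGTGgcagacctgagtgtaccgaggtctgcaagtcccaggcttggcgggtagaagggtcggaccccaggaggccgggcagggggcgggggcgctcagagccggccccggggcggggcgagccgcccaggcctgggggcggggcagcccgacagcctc
*Mib2*, chr4:155669255-155669504: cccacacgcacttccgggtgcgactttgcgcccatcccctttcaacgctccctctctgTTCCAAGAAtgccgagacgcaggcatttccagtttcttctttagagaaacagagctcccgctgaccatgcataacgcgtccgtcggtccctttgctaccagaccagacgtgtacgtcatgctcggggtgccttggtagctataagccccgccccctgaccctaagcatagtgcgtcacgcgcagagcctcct
*Jag1*, chr2:137116521-137116770: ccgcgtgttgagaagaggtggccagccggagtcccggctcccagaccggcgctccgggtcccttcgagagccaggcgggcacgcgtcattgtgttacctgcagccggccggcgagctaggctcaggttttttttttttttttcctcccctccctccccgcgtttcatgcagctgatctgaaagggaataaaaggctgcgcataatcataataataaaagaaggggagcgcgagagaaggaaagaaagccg

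The *Notch3* window lies inside the gene's annotated span, and a second, overlapping *Mib2* window held the same palindrome. No member's window held TGGGAA or CACGTG, and 1 N-box each was found before *Notch1*, *Notch2* and *Dlk2*. A match is a run of letters and not a measured binding site.

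Levels are log2 signals, quantile normalized across the 24 arrays, and folds of one probe are differences of them. Between 24018 and 35412 of 55681 probes per array were well above background, most of them on LeGO-1.0/1.6 replicate 1, which also had the most outlier spots (644, against a minimum of 146). The arrays lie on 3 slides. All -LH arrays and 1 array each of siNEG +LH and LeGO-GFP were on slide 1, the other +LH siRNA arrays on slide 2 and the other lentiviral arrays on slide 3. The mPINC probe (*Pinc*) changed by -1.11 on the log2 scale (adjusted p = 0.0366, limma) in -LH siPINC1.0/1.6 cells and by -1.17 (adjusted p = 0.147) in -LH siPINC cells. With hormones its level in siNEG was 4.87, and the changes were 0.19 (adjusted p = 0.713) and -0.50 (adjusted p = 0.428), but the probe was well above background on only 2 of 3 siNEG, 2 of 3 siPINC1.0/1.6 and 1 of 3 siPINC arrays, so a knockdown could not be checked there. It was 13.44 in LeGO-1.0/1.6 against 6.07 in LeGO-GFP, and 6.06 in LeGO-DCR, so the mutant RNA was not checked by this probe.

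The cells' type was checked with marker lists. The 4 epithelial markers *Krt8*, *Krt18*, *Epcam* and *Cdh1* and the 4 basal markers *Krt5*, *Krt14*, *Trp63* and *Acta2* were well above background on all 24 arrays, as were 2 of the 4 endothelial markers, *Pecam1* and *Kdr*, and 1 of the 3 immune markers with a probe, *Cd3e*. The other endothelial markers *Tek* and *Cdh5* were so on 0 and 1 arrays. The log2 of the basal list's summed signals, averaged over arrays, was 17.31 in siNEG -LH, 15.51 in siNEG +LH, 16.03 in LeGO-GFP and 14.09 in LeGO-1.0/1.6. Such a sum follows the brightest genes of a list, here *Krt5* and *Krt14*. From siNEG -LH to siNEG +LH, *Krt5* (16.53 to 13.8), *Krt14* (16.0 to 14.89) and *Trp63* (11.32 to 10.71) were lower. *Acta2* was higher (6.1 to 7.02). The milk list (*Csn2*, *Csn3*, *Wap* and *Ltf*) was at 8.28, 11.78, 14.92 and 10.62 in the same order, and the fibroblast list at 9.43, 12.00, 13.37 and 9.67, which followed *Dcn*. The luminal progenitor list (*Elf5*, *Kit*, *Cd14* and *Aldh1a3*, the last on 0 arrays above background) was at 11.25, 14.19, 14.82 and 12.74. In -LH siPINC1.0/1.6 cells the basal list was at 17.13, the milk list at 8.76, the luminal progenitor list at 11.37 and the fibroblast list at 8.56. There the fibroblast markers *Col1a1* (log2 change -1.79) and *Pdgfra* (-1.02), the milk gene *Csn3* (-1.83) and the progenitor marker *Elf5* (-0.72) were lower and *Col1a2* (0.59) and the basal marker *Acta2* (0.59) higher at an adjusted p under 0.05 (limma). The other measured milk and progenitor markers did not pass. Of these, *Ltf* (0.98, adjusted p = 0.0615, limma) and *Cd14* (0.49, adjusted p = 0.176) were higher and *Kit* (-0.72, adjusted p = 0.0567) lower. The summed signals of the basal, milk, fibroblast and luminal progenitor lists moved between the same groups as the Notch genes. The part of these lists in the Notch results was not tested. In bulk RNA, fewer cells of a type and less RNA per cell cannot be told apart.

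Of the 10 members, 9 were well above background on all 24 arrays, and *Hes1* was on 0 arrays, with log2 signals between 1.89 and 3.54. The level of *Hes1*, a repressor gene that Notch is known to induce, therefore has only an upper bound, and its differences are not given. All counts below are over the 9 measured members, as limma calls at an adjusted p under 0.05 over all 55681 probes.

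**Figure D1:**
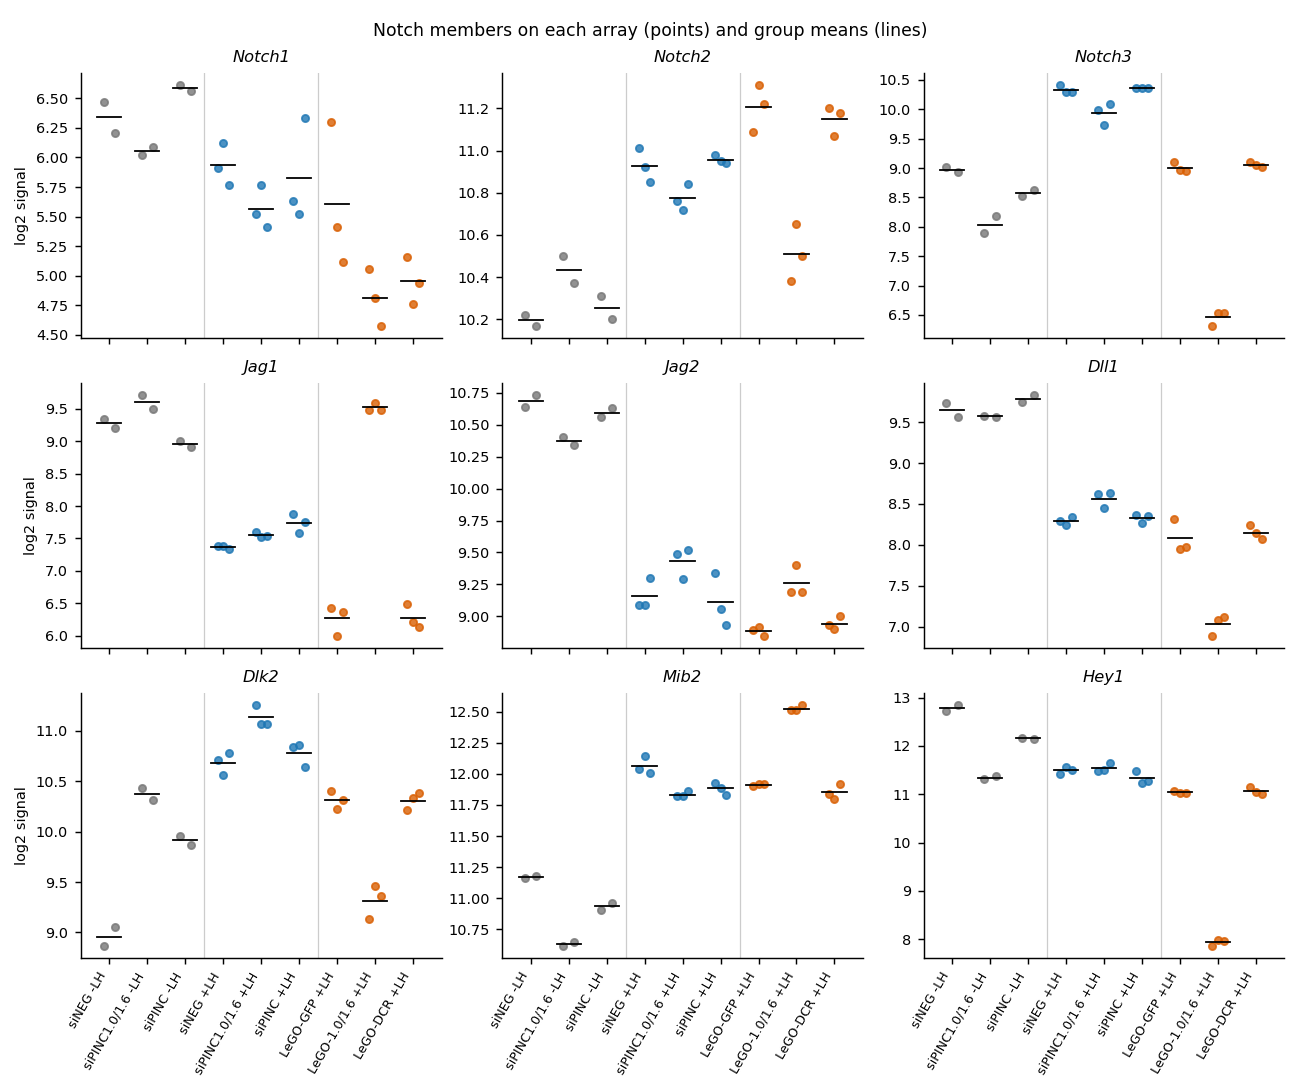
Log2 signal of the 9 measured Notch members (y axis, a scale of its own for each gene) on each of the 24 arrays, by group (x axis; grey -LH siRNA, blue +LH siRNA, orange +LH lentivirus); points are arrays and lines group means. *Jag1*, *Notch3*, *Hey1* and *Dll1* in LeGO-1.0/1.6 lie apart from LeGO-GFP and LeGO-DCR.

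The hormones moved 8 of the 9 measured members in siNEG cells, with *Notch2*, *Notch3*, *Dlk2* and *Mib2* higher and *Jag1*, *Jag2*, *Dll1* and *Hey1* lower. The background was high, since 27.1% of all probes, and 57.4% of the 21107 probes well above background on all arrays, were called. The median absolute log2 change was 1.36 for the members, 0.33 for all probes and 0.38 for those well above background on all arrays. The 3 canonical ligands thus fell while 2 of the 3 receptors rose. On slide 1, which held 1 siNEG +LH array, the log2 changes of these 8 members had the same signs, between -1.88 for *Jag1* and 1.75 for *Dlk2*. Overexpressed mPINC1.0 and mPINC1.6 moved 8 members against LeGO-GFP, with *Jag1*, *Jag2* and *Mib2* higher and *Notch2*, *Notch3*, *Dll1*, *Dlk2* and *Hey1* lower, where 30.3% of all probes and 60.2% of the bright ones were called. The median absolute log2 change was 0.99 for the members, 0.33 for all probes and 0.43 for the bright ones.

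The deletion mutant moved 0 of 9 members against LeGO-GFP by limma, where 0.0736% of all probes and 0.0142% of the bright ones were called. At an unadjusted p under 0.05 (limma) the count was 0 as well, where 2519 of all 55681 probes passed. The methods' t-test, taken here at an adjusted p under 0.05, also called 0 members. The study itself used this test at an unadjusted p with a fold change threshold. The 95% intervals of the log2 change lay between -0.32 and 0.35 for 8 members, and ran from -1.36 to 0.05 for *Notch1*. LeGO-1.0/1.6 against LeGO-DCR, all of whose arrays were on slide 3, called the same 8 members in the same directions as against LeGO-GFP. There 29.7% of all probes and 60% of the bright ones were called. The *Jag2* call against LeGO-DCR (log2 0.32, adjusted p = 0.0116, limma) was lost with the 75th percentile normalization (adjusted p = 0.054) and the methods' t-test (adjusted p = 0.0502).

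**Figure D2:**
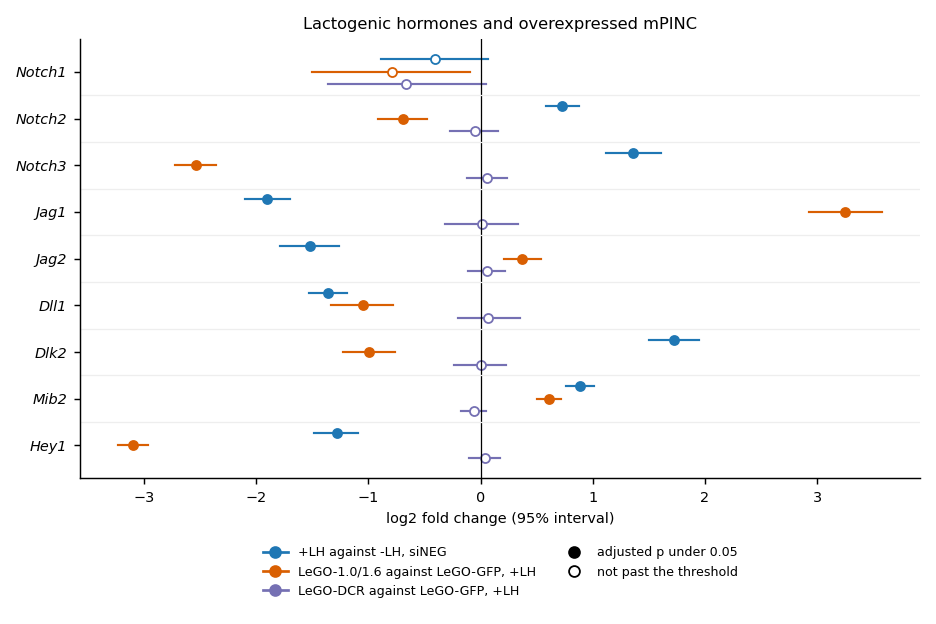
Log2 fold change (x axis) of each measured member (y axis) for the hormones in siNEG cells, for LeGO-1.0/1.6 and for LeGO-DCR against LeGO-GFP; bars are 95% intervals and filled points passed an adjusted p under 0.05. *Jag1* is at -1.90 with the hormones and 3.25 in LeGO-1.0/1.6, and *Hey1* at -1.28 and -3.10, whereas the LeGO-DCR points lie between -0.66 and 0.07.

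Without hormones, siPINC1.0/1.6 moved 4 members, *Dlk2* higher and *Notch3*, *Mib2* and *Hey1* lower, against a background of 2.96% of all probes (5.46% of the bright ones). The siPINC arrays gave 0 of 9 calls without hormones, with 0% of all probes called by limma. At an unadjusted p under 0.05 (limma), 5 of the 9 members and 5391 of all 55681 probes passed there. The methods' t-test at an adjusted p under 0.05 called 0 members. Over all probes it called 0 higher and 2 lower. With hormones, siPINC1.0/1.6 moved 1 member (11.1%), *Dlk2*, against 3.84% of all probes and 8.59% of the bright ones, a share near that of the members. siPINC moved 0, against 0.681% of all and 1.46% of the bright probes. In the latter, 2 of the 9 members and 5620 of all 55681 probes passed an unadjusted p under 0.05 by limma. The methods' t-test at an adjusted p under 0.05 called 0 members, and over all probes 18 higher and 7 lower. The 95% intervals of the 9 members in siPINC +LH cells lay between -0.64 and 0.54. The difference of the siRNA effect between +LH and -LH cells was called for 2 members with siPINC1.0/1.6 (3.19% of all probes, 6.83% of the bright ones) and for 1 with siPINC (0.503% and 0.938%).

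**Figure D3:**
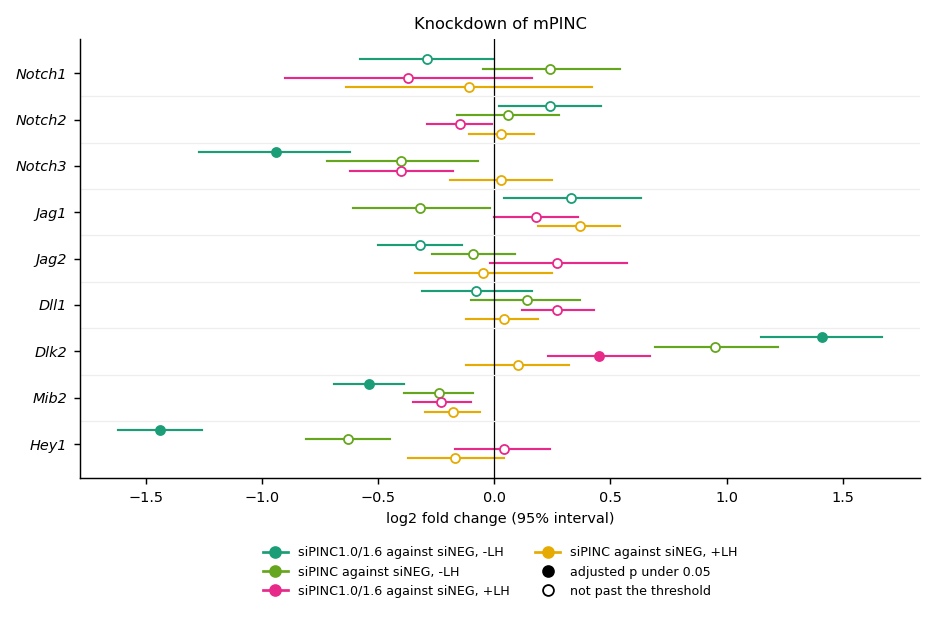
Log2 fold change (x axis) of each measured member (y axis) for both knockdowns against siNEG, without and with hormones; bars are 95% intervals and filled points passed an adjusted p under 0.05. *Dlk2* is at 1.41 and *Hey1* at -1.44 in siPINC1.0/1.6 -LH cells, and at 0.45 and 0.04 in siPINC1.0/1.6 +LH cells.

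*Notch3* was the receptor with the widest range. Its log2 signal was 9.01 and 8.94 on the siNEG -LH arrays and 10.41, 10.30 and 10.30 on the siNEG +LH arrays. The groups did not overlap, and the rise was 2.57-fold (log2 1.36, standard error 0.109, adjusted p = 3.30e-06, limma). In LeGO-GFP it was 9.10, 8.96 and 8.95, in LeGO-DCR 9.10, 9.06 and 9.02, and in LeGO-1.0/1.6 only 6.32, 6.53 and 6.54. The fall against LeGO-GFP was 5.82-fold (log2 -2.54, standard error 0.0764, adjusted p = 5.84e-07, limma) and -2.47 on the log2 scale without LeGO-1.0/1.6 replicate 1. In -LH siPINC1.0/1.6 cells it was 7.89 and 8.18, below both siNEG arrays (log2 change -0.94, adjusted p = 0.0474, limma), and in siPINC cells 8.53 and 8.62 (log2 change -0.40, adjusted p = 0.430). Over the 9 groups, LeGO-1.0/1.6 was lowest and the siNEG and siPINC +LH groups, which overlapped, highest. LeGO-GFP lay at the level of siNEG -LH cells, with overlapping ranges, although it had received hormones.

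*Notch2* moved less than *Notch3*, and in the same directions with the hormones and with overexpression. In -LH siPINC1.0/1.6 cells its log2 change was 0.24 (adjusted p = 0.221, limma), where that of *Notch3* was -0.94. It was at 10.22 and 10.17 in siNEG -LH and at 11.01, 10.92 and 10.85 in siNEG +LH cells, a rise of 1.66-fold (log2 0.73, adjusted p = 1.20e-05, limma). In LeGO-GFP it was 11.09, 11.31 and 11.22 and in LeGO-1.0/1.6 10.38, 10.65 and 10.50, a fall of 0.69 on the log2 scale (log2 change -0.69, adjusted p = 0.000808, limma). The groups were apart in both comparisons. The second *Notch2* probe, with a mean log2 signal of 5.65, gave 0.44 (adjusted p = 0.151) for the hormones and 0.18 (adjusted p = 0.805) for LeGO-1.0/1.6, so the fall in overexpressing cells rests on the brighter probe. Averaged over both probes it was -0.26 (adjusted p = 0.428).

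*Notch1* was called in 0 of the 10 comparisons. It was dim, at 6.47 and 6.21 in siNEG -LH, 5.91, 6.12 and 5.77 in siNEG +LH, 6.30, 5.41 and 5.12 in LeGO-GFP, and 5.06, 4.81 and 4.58 in LeGO-1.0/1.6 cells. The log2 changes were -0.41 (adjusted p = 0.228, limma) for the hormones and -0.79 (adjusted p = 0.0966, limma) for LeGO-1.0/1.6. LeGO-GFP replicate 1, the array on slide 1, was the highest of its group, and without it the latter value was -0.45 (adjusted p = 0.134). *Notch1* passed in this comparison without LeGO-GFP replicate 3, with bright probes only, with the replicate block and in 1 fit of all arrays, which made the count 9. The second *Notch1* probe was well above background on 6 of 24 arrays.

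*Jag1*, a ligand that activates Notch receptors on neighbouring cells, moved in opposite directions with the hormones and with overexpression. It was at 9.34 and 9.21 in siNEG -LH and at 7.39, 7.39 and 7.34 in siNEG +LH cells, so that the hormones lowered it 3.73-fold (log2 -1.90, standard error 0.0916, adjusted p = 6.97e-08, limma). Within slide 1 the change was -1.88. In LeGO-GFP it was 6.43, 6.00 and 6.37, in LeGO-DCR 6.48, 6.21 and 6.13, and in LeGO-1.0/1.6 9.49, 9.59 and 9.49. The rise was 9.55-fold (log2 3.25, standard error 0.137, adjusted p = 2.57e-06, limma) against LeGO-GFP, and 3.27 on the log2 scale without LeGO-1.0/1.6 replicate 1. Hormone-treated LeGO-1.0/1.6 cells thus had a *Jag1* signal above both siNEG -LH arrays, and their range overlapped that of siPINC1.0/1.6 -LH cells, which had the highest mean (9.61). These levels come from separate experiments and slides, and there was no -LH lentiviral group. On slide 1 the hormone-treated controls were themselves at 7.39 (siNEG) and 6.43 (LeGO-GFP). The 2 knockdowns did not pass the test, with log2 changes between -0.32 and 0.37.

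*Jag2*, a second ligand of this type, also fell with the hormones. It was at 10.64 and 10.73 in siNEG -LH and at 9.09, 9.09 and 9.30 in siNEG +LH cells, 2.88-fold lower (log2 -1.52, adjusted p = 3.15e-06, limma). In LeGO-1.0/1.6 it was 9.19, 9.40 and 9.19 and in LeGO-GFP 8.89, 8.92 and 8.85, a rise of 0.37 (adjusted p = 0.0052, limma). The *Jag2* level in LeGO-1.0/1.6 cells was well below that of siNEG -LH cells, unlike that of *Jag1*, although no -LH lentiviral group was measured.

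*Dll1*, a ligand of the Delta type, was at 9.74 and 9.56 in siNEG -LH and at 8.29, 8.24 and 8.34 in siNEG +LH cells. The fall was 2.57-fold (log2 -1.36, standard error 0.0759, adjusted p = 2.11e-07, limma). In LeGO-GFP it was 8.32, 7.95 and 7.97 and in LeGO-1.0/1.6 6.89, 7.08 and 7.12, a 2.07-fold fall against LeGO-GFP (log2 -1.05, adjusted p = 0.000321, limma). *Dll1* was therefore lower in LeGO-1.0/1.6 cells than in all other groups, where *Jag1* and *Jag2* were higher than in their control.

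*Dlk2* encodes a ligand-like protein that can inhibit Notch signalling. Without hormones it was at 8.87 and 9.05 with siNEG, at 10.43 and 10.31 with siPINC1.0/1.6 and at 9.96 and 9.87 with siPINC. The 3 groups were apart, with log2 changes of 1.41 (2.66-fold, adjusted p = 0.0287, limma) and 0.95 (adjusted p = 0.159) against siNEG. With hormones it was 10.71, 10.56 and 10.78 in siNEG cells, 3.30-fold higher than without (log2 1.72, adjusted p = 3.01e-07, limma), 11.25, 11.07 and 11.07 in siPINC1.0/1.6 cells and 10.84, 10.86 and 10.64 in siPINC cells. The change with siPINC1.0/1.6 was then 0.45 (adjusted p = 0.0497, limma), and it was lost without any 1 of the 9 arrays, with adjusted p between 0.0546 and 0.152. In overexpressing cells *Dlk2* was 9.13, 9.46 and 9.36 against 10.40, 10.22 and 10.31 in LeGO-GFP, a 1.99-fold fall (log2 -0.99, adjusted p = 0.000187, limma), -0.90 without LeGO-1.0/1.6 replicate 1. The siRNA effect was smaller with than without hormones by 0.96 on the log2 scale for siPINC1.0/1.6 (interaction -0.96, adjusted p = 0.00456, limma) and by 0.86 for siPINC (interaction -0.86, adjusted p = 0.0353).

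*Mib2*, a ubiquitin ligase that acts on Notch ligands, varied little within groups. Without hormones the siNEG arrays gave 11.16 and 11.18, the siPINC1.0/1.6 arrays 10.62 and 10.65, and the siPINC arrays 10.91 and 10.96, with changes of -0.54 (adjusted p = 0.0379, limma) and -0.24 (adjusted p = 0.329). With hormones siNEG cells had 12.04, 12.14 and 12.01, which was 1.85-fold higher (log2 0.89, adjusted p = 4.79e-07, limma). LeGO-1.0/1.6 was at 12.51, 12.51 and 12.55 and LeGO-GFP at 11.90, 11.92 and 11.92, a 1.53-fold rise (log2 0.61, adjusted p = 4.77e-05, limma). *Mib2* had its lowest level in siPINC1.0/1.6 -LH and its highest in LeGO-1.0/1.6 cells, and both groups were apart from their neighbours.

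*Hey1*, a target gene that encodes a repressor, had the smallest p of the members in LeGO-1.0/1.6 and in -LH siPINC1.0/1.6 cells. It was at 12.73 and 12.84 in siNEG -LH and at 11.41, 11.57 and 11.51 in siNEG +LH cells, a 2.43-fold fall (log2 -1.28, standard error 0.0873, adjusted p = 9.80e-07, limma). In -LH siPINC1.0/1.6 cells it was 11.31 and 11.37, 2.71-fold lower than in siNEG (log2 -1.44, standard error 0.0657, adjusted p = 0.0215, limma), and in siPINC cells 12.16 and 12.15 (log2 -0.63, adjusted p = 0.169). Cells with siPINC1.0/1.6 and no hormones thus had a lower *Hey1* signal than siNEG cells with hormones, with ranges apart. With hormones siPINC1.0/1.6 cells had 11.48, 11.50 and 11.64 (log2 0.04, adjusted p = 0.932), and the interaction was 1.48 (standard error 0.123, adjusted p = 0.000184, limma). In LeGO-1.0/1.6 it was 7.87, 7.98 and 7.97, against 11.07, 11.02 and 11.03 in LeGO-GFP and 11.15, 11.05 and 11.01 in LeGO-DCR. This fall was 8.55-fold (log2 -3.10, standard error 0.0571, adjusted p = 1.04e-07, limma), -3.06 without LeGO-1.0/1.6 replicate 1 and -3.08 within slide 3. *Hey1* therefore fell with siPINC1.0/1.6 in -LH cells and with overexpression in +LH cells, which are unlike hormone states. In +LH cells its change was not called with siPINC1.0/1.6, nor with siPINC (log2 -0.17, adjusted p = 0.615, limma).

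The -LH knockdown calls rest on 2 arrays a group. All 4 were lost without any 1 of the 6 arrays, where the log2 change lay between 1.32 and 1.5 for *Dlk2*, -1.49 and -1.38 for *Hey1*, -1.08 and -0.80 for *Notch3*, and -0.56 and -0.52 for *Mib2*. Over all 55681 probes, these fits called between 0 and 79 higher and between 0 and 152 lower, against 844 and 806 in the main fit. The loss is therefore not particular to these members. The interaction of *Dlk2* with siPINC lay between -0.94 and -0.77 and was lost for 12 of 15 arrays left out.

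The hormone and overexpression comparisons share no array, and 8 members were called in both. Of these, 5 moved in opposite directions (*Notch2*, *Notch3*, *Jag1*, *Jag2* and *Dlk2*) and 3 in the same (*Dll1*, *Mib2* and *Hey1*). Over all probes, 8315 of the 10158 called in both (81.9%) moved in opposite directions. The -LH siPINC1.0/1.6 knockdown shares no array with the overexpression either, which was measured only in cells with hormones. Of the 4 members called in both, *Dlk2* and *Mib2* moved in opposite directions, for which the study had listed them, and *Notch3* and *Hey1* fell in both. Over all probes, 164 of 1256 called in both (13.1%) moved in opposite directions.

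Of 51 other genes of the pathway, 49 had a named probe, and between 39 and 41 of these were above background on every array of a group in the comparison. The hormones in siNEG cells moved 24 of 41 (58.5%), 18 higher and 6 lower, a share near the 57.4% of all bright probes, with a median log2 change of 0.26 against 0.01 for all probes. The receptor cleavage genes gave 5 calls of 8 (62.5%, also near 57.4%), all higher, among them *Psen2* (log2 0.70) and *Aph1a* (0.65), subunits of gamma-secretase. The nuclear complex gave 4 of 6 (66.7%, against the same 57.4%), all higher, including *Rbpj* (0.29) and *Maml1* (0.48). *Rbpj* kept its call in 22 of 27 alternatives, over which its log2 change ran from -0.17 to 0.34.

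The largest rises of the list with the hormones were in *Dtx1*, a Deltex ubiquitin ligase, at least 13.01-fold, *Dtx3* (log2 1.47, adjusted p = 9.04e-07, limma) and the receptor *Notch4* (1.26, adjusted p = 0.000211). The bound for *Dtx1* is given because its probe was not well above background in siNEG -LH cells, and it is the +LH mean over the higher, on each -LH array, of the probe's signal and the lowest signal of a probe well above background. The largest falls were in *Egfl7*, a secreted protein that can bind Notch (log2 -3.53, adjusted p = 5.13e-08, limma), *Nrarp*, a target and feedback inhibitor of Notch, at least 6.80-fold, and *Lfng*, a glycosyltransferase that modifies the receptors (-1.98, adjusted p = 8.90e-06). *Nrarp* fell together with *Hey1*, whereas *Hes6*, another gene of the target group, rose by 0.37.

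In LeGO-1.0/1.6 against LeGO-GFP 26 of 41 were called (63.4%, near the 60.2% of bright probes), 8 higher and 18 lower, with a median log2 change of -0.22 against -0.01 for all probes. The 3 measured ligand endocytosis genes *Mib1* (0.52), *Neurl1a* (1.79) and *Neurl1b* (0.91) rose, as *Mib2* did, whereas the hormones had lowered *Neurl1a* (-1.67). The corepressor genes *Hdac1*, *Spen* and *Ctbp1* fell, with log2 changes of -0.63, -0.48 and -0.37. The largest rises were in *Egfl7* (2.24, adjusted p = 1.18e-05, limma), *Neurl1a* (adjusted p = 4e-06) and *Dtx4* (1.75, adjusted p = 1.1e-05). The largest falls were in *Dtx1*, *Notch4* (-1.54, adjusted p = 0.000334) and *Lfng* (-1.41, adjusted p = 1.7e-05). *Dtx1* was at 6.88 in LeGO-GFP and 2.86 in LeGO-1.0/1.6, where 1 of 3 arrays was well above background, so that no fold is given. Against LeGO-DCR 27 of 41 were called (65.9%, where 60% of bright probes were), led by *Dtx1* (6.75 in LeGO-DCR), *Notch4* (-1.50) and *Maml2* (-1.41) among the falls and *Egfl7* (2.15), *Neurl1a* (1.95) and *Dtx4* (1.93) among the rises. LeGO-DCR against LeGO-GFP gave 0 calls of 41 by limma, with 1 gene, and 2519 of all 55681 probes, at an unadjusted p under 0.05.

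**Figure D4:**
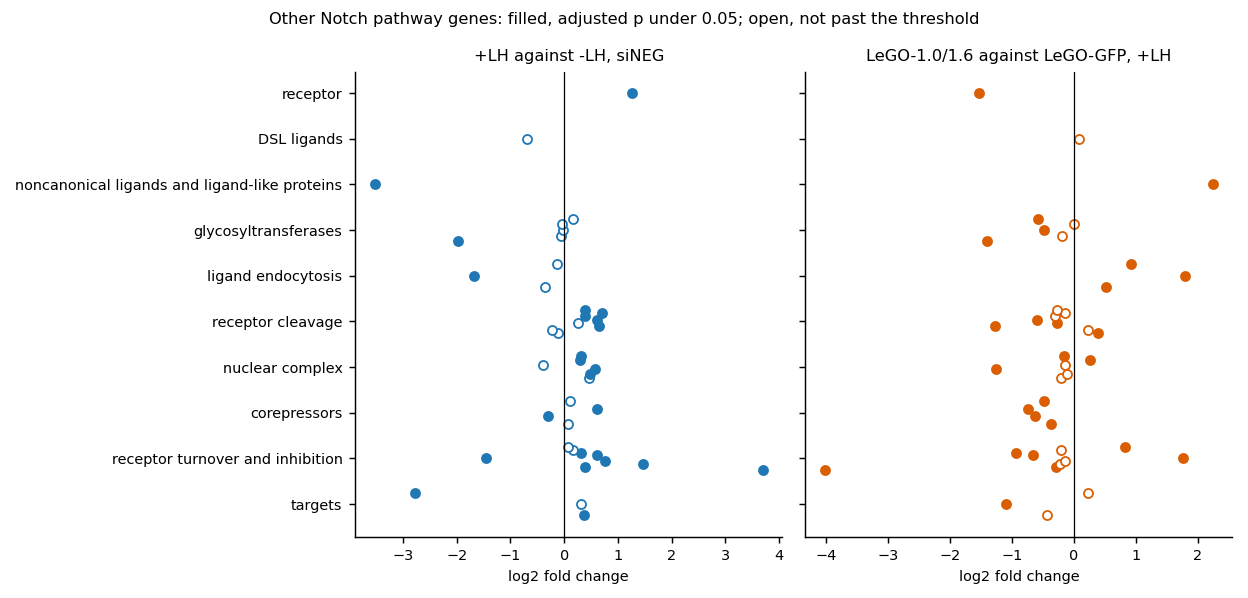
Log2 fold change (x axis) of the other Notch pathway genes by their group in the pathway (y axis), for the hormones in siNEG cells (left) and for LeGO-1.0/1.6 against LeGO-GFP (right); each point is a gene above background on every array of a compared group, and filled points passed an adjusted p under 0.05. *Dtx1* lies farthest to the right on the left and farthest to the left on the right, although its probe was not well above background on every array of its lower group in either panel, and *Egfl7* lies the other way round.

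The knockdowns gave few calls in this list in the main fits. Under the alternatives that kept all arrays, the counts ran from 0 to 10 for siPINC1.0/1.6 -LH and from 0 to 7 for siPINC1.0/1.6 +LH. They ran from 0 to 2 for siPINC -LH and stayed at 0 for siPINC +LH. With 1 array left out they were 0, except for siPINC1.0/1.6 +LH (0 to 2). Without hormones siPINC1.0/1.6 raised *Dtx4* (log2 1.45, adjusted p = 0.0282, limma) and *Egfl7* (0.91, adjusted p = 0.0325), 2 of 40 genes (5.0%, where 5.46% of bright probes were called), and both calls were lost without any 1 of the 6 arrays. Those fits called at most 79 of all probes higher and at most 152 lower. In the main fits the other 3 knockdown comparisons gave 0 calls by limma. At an unadjusted p under 0.05 (limma) the counts were 8 of 40 (siPINC -LH), 11 of 39 (siPINC1.0/1.6 +LH) and 4 of 39 (siPINC +LH) genes. Over all 55681 probes they were 5391, 8136 and 5620 in the same order. The interaction was called for *Rbpj* with siPINC1.0/1.6 (0.53, adjusted p = 0.0261, limma), 1 of 41 genes (2.44%, where 6.83% of bright probes were called). That call was kept in 15 of 25 alternatives, over which the log2 difference ran from 0.20 to 0.58. With siPINC the interaction was called for 0 genes, where 3 of 41 genes and 4030 of all 55681 probes passed an unadjusted p under 0.05 (limma).

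Across the 9 group means, the levels of the measured members ran together or against each other in several pairs, as a description over groups that share slides and hormone treatment. Pearson's r was 0.88 between *Notch1* and *Dll1*, 0.86 between *Jag2* and *Dll1*, -0.95 between *Dll1* and *Mib2*, and -0.92 between *Notch2* and each of *Jag1* and *Jag2*. *Dlk2* and *Mib2* had an r of 0.12. Among 18172 named probes well above background in at least one group, the genes most like *Hey1* in their 9 group means were *Nfic*, *Atp5j* and *Fundc2* (r between 0.9887 and 0.992). Those most like *Mib2* were *Medag*, *Mtmr3* and *Oas1e* (0.9914 to 0.993), and those most like *Dlk2* were *Snx11*, *Ppp2cb* and *Grpel2* (0.9311 to 0.9613).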

How the data were processed

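Total RNA of HC11 cells was labelled with Cy3 and hybridised to 24 1-colour Agilent arrays. The authors deposited scanner files from Agilent Feature Extraction 11.0.1.1, whose processed intensity is background-subtracted and carries no normalization across arrays, and a series table of normalized log2 values. Here the log2 processed signals of 59305 spots that are not controls were quantile normalized across the 24 arrays, outlier spots (146 to 644 per array) were dropped, and replicate spots were averaged to 55681 probes. No spot was saturated. Of the 26607 probes with a symbol, 26582 were named through RefSeq and 25 through the study's tables.

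limma 3.58.1 (R 4.3.3, lmFit and eBayes) was run with separate fits for the -LH siRNA, the +LH siRNA and the lentiviral arrays, and 1 fit of the 15 siRNA arrays for the hormones and interactions. p-values were adjusted by Benjamini-Hochberg over all probes. The methods call the arrays of a group biological replicates, without saying how the cultures were separated. The members, gene lists and tests were chosen with earlier results of these data known. The genes named are the members and, from the pathway list, up to 3 called genes per direction and comparison by size of change. *Dtx1* in LeGO-1.0/1.6 and further pathway genes named by group were chosen after their values were seen.

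Simulated data with 200 changed probes among 55681 served as a test of the fits. For true log2 changes of size 1 and 2, the share called was 34% and 56% for siPINC1.0/1.6 against siNEG in -LH cells, and 53% and 68% for LeGO-1.0/1.6 against LeGO-GFP. In the real data 1650 and 16857 probes were called in these comparisons. The adjustment depends on how many probes change, so the simulated shares do not give the power of the real comparisons. As alternatives, arrays were scaled to their 75th percentile or quantile normalized within a fit, and the results were recomputed with normexp correction of the median signals (offset 50), bright probes only, a trended robust prior, the methods' t-test, 1 fit of all arrays without and with a slide term, a replicate block, the series matrix values, the mean of a gene's probes, and leaving out each array. The methods' t-test was called at the same adjusted p under 0.05, and not at the study's thresholds of unadjusted p and fold change. A fit within slide 1 for the hormones was added after the data were seen. The number of arrays limits the precision. Summaries used Python 3.11.15, pandas 2.3.3, numpy 2.4.6 and matplotlib 3.10.9.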

Additional observations from a re-analysis of the deposited data

Results flagged for a closer look

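The effect of a knockdown on 2 members differed between cells without and with hormones by an interaction term in limma. *Hey1* was lower with siPINC1.0/1.6 by a log2 change of -1.44 without hormones and was at 0.04 with them, a difference of 1.48 (standard error 0.123, adjusted p = 0.000184). *Dlk2* was higher by 1.41 without and 0.45 with hormones, a difference of -0.96 (adjusted p = 0.00456), and for siPINC by 0.95 and 0.10, a difference of -0.86 (adjusted p = 0.0353). The -LH arrays were all on slide 1 and 8 of the 9 +LH siRNA arrays on slide 2. With a slide term the differences were 1.44 for *Hey1* and -0.95 and -0.84 for *Dlk2*.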

How the results depend on the processing

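The 32 calls of a member in a comparison gave 699 values under the alternatives, of which 0 reversed, 631 kept their call and 68 lost it. The counts for the hormones, LeGO-DCR and LeGO-1.0/1.6 kept within 1.5 times under every alternative. For siPINC1.0/1.6 -LH (4 members called) the count was 2 with the series matrix values and with the 75th percentile, 0 with the replicate block and the methods' t-test, and 0 in every fit that left out 1 array. Over all probes the replicate block called 0 and the t-test 0 higher and 1 lower. The fits without 1 array called at most 79 higher and 152 lower. For siPINC -LH (0 called) it was 2 with normexp, the trended robust prior and the slide term, and 3 in 1 fit of all arrays. For siPINC1.0/1.6 +LH (1 called) it was 0 with the 75th percentile, the methods' t-test, the series matrix values, the replicate block and each array left out, 2 with normexp, 4 with bright probes only, and 3 with the trended robust prior and in 1 fit of all arrays without or with the slide term. For siPINC +LH (0 called) it was 1 with bright probes only. For the interaction of siPINC1.0/1.6 (2 called) it was 5 with bright probes only and in 1 fit of all arrays, 4 with the trended robust prior and the slide term, and 2 to 3 with 1 array left out. For that of siPINC (1 called) it was 0 with the 75th percentile, the series matrix values and the replicate block, 2 with bright probes only and the trended robust prior, and 0 to 1 with 1 array left out. Why was not tested, apart from the fewer arrays or probes that an alternative holds by its construction. The methods' t-test was not run for the interactions.

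The replicate numbers did not pair the arrays, since deviations of same-numbered arrays from their group means correlated between -0.326 and 0.144. With the number as a block, the count for LeGO-1.0/1.6 against LeGO-GFP was 9 and that for the hormones 8. Signal over background limits *Hes1* and the second *Notch1* probe.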

Other observations

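The control cells with hormones differed in level between the siRNA and the lentiviral experiment. On slide 1, which held 1 array of each, *Notch3* was at 10.41 in siNEG and 9.10 in LeGO-GFP cells, and *Jag1* at 7.39 and 6.43. The other members differed by at most 0.39 on that slide. This difference was not tested.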
